A study of Mus musculus with 5 samples.

Results

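The effect of an inhibitor of glycogen synthase kinase 3 (GSK3) on gene expression was examined in E3, a line of mouse epiblast stem cells, which are pluripotent and come from the epiblast of the embryo after implantation. One culture, called CH here, had received 3 µM CHIR99021 for 12 h, and the untreated culture had been given the same knockout serum replacement (KSR) medium without supplements for the same time. Both cultures had grown on inactivated CF1 mouse embryonic fibroblasts with 5 ng/ml FGF2 before the change, so neither medium contained FGF2 during the 12 h. A culture given CHIR99021 together with 1 µM of the MEK inhibitor PD0325901 and 1000 U/ml of leukemia inhibitory factor (PCL), and cultures given PD0325901 alone (PD) or the factor alone (LIF), are used below where a CH result is set against arrays that did not define it. The members are all probes with a gene symbol whose detection p was under 0.01 on the CH array, on the untreated array or on both. These were 10504 of 23978 named probes on the array, and 7699 of 16593 genes when the brightest probe stood for its gene.

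GSK3 phosphorylates beta-catenin in a complex with Axin and APC and thereby marks it for degradation, and Wnt ligands act through Frizzled and LRP receptors to block this step. Beta-catenin that accumulates binds TCF/LEF factors on DNA and activates target genes, several of which encode inhibitors that feed back on the pathway. In the embryo Wnt signalling acts with Nodal in the posterior epiblast, where the primitive streak forms and gives rise to mesoderm and endoderm. GSK3 also phosphorylates other proteins, among them glycogen synthase, so its inhibition is not the same as a Wnt stimulus.

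Each condition had 1 array and 1 culture, so the differences have no replicate check, no p-value was computed, and each ± is the bead standard error within the arrays. Levels are given as log2 of the background-corrected and quantile-normalized intensity, to which an offset of 16 had been added, and a difference is the CH level minus the untreated level on that scale. On the CH array 10538 probes were detected and on the untreated array 10610, with median bead errors of 4.18% and 4.39% of the signal. At the detection threshold, the 65 named probes just inside it on the CH array had raw intensities of 106.7 to 107.4, and the 59 just outside it 106.3 to 106.7. The corresponding 72 and 113 probes on the untreated array had 98.9 to 99.3 and 98.2 to 98.8. The median bead error of a difference was 0.13, and 36.0% of genes differed by more than 2 bead errors. For 1783 genes with at least 2 probes detected on both arrays, the differences given by the brightest probe and the next brightest lay a median of 0.17 and, at the 95th percentile, 0.61 apart. Where a probe was detected on 1 of the 2 arrays only, the change is given as "at least N-fold", which sets the brighter level against the higher of the probe's own level and the lowest detected level on the dimmer array, 5.12 with CH and 5.10 in untreated cells. Such a bound does not include the bead error, so it is not a certain minimum.

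With CH, 44 genes (0.572% of those compared) were past 2-fold on the higher side and 30 genes (0.39%) on the lower side in measured values. Counted as probes, these were 53 (0.505%) and 35 (0.333%). The higher set was led by Wnt pathway and primitive streak genes, namely Fst, Sp5, Fgf8, Gsc and Wnt8a, all of which had a measured difference of more than 2 on the log2 scale, as did Rtl8c and Gbx2. The lower set was flatter: with genes detected on 1 array placed at their bound, 11 genes were past 3-fold on the higher side and 7 past 4-fold, against 0 and 0 on the lower side. As measured, 13 genes were past 3-fold on the higher side and 1, Mgp, on the lower. Of the higher genes 26 were detected on both arrays and 18 on the CH array only, and of the lower genes 14 were detected on both and 16 on the untreated array only. With the genes detected on 1 array placed at their bound, 32 genes (0.416%) stayed past 2-fold on the higher side and 18 (0.234%) on the lower. At the lower threshold of 1.5-fold the numbers were almost equal, with 310 genes (4.03%) higher and 304 (3.95%) lower. The split of higher and lower genes moved with the scaling and background settings: it was 63 to 20 under median scaling, 13 to 2 without background correction, 17 to 5 with an offset of 50 and 180 to 202 with an offset of 1.

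**Figure D1:**
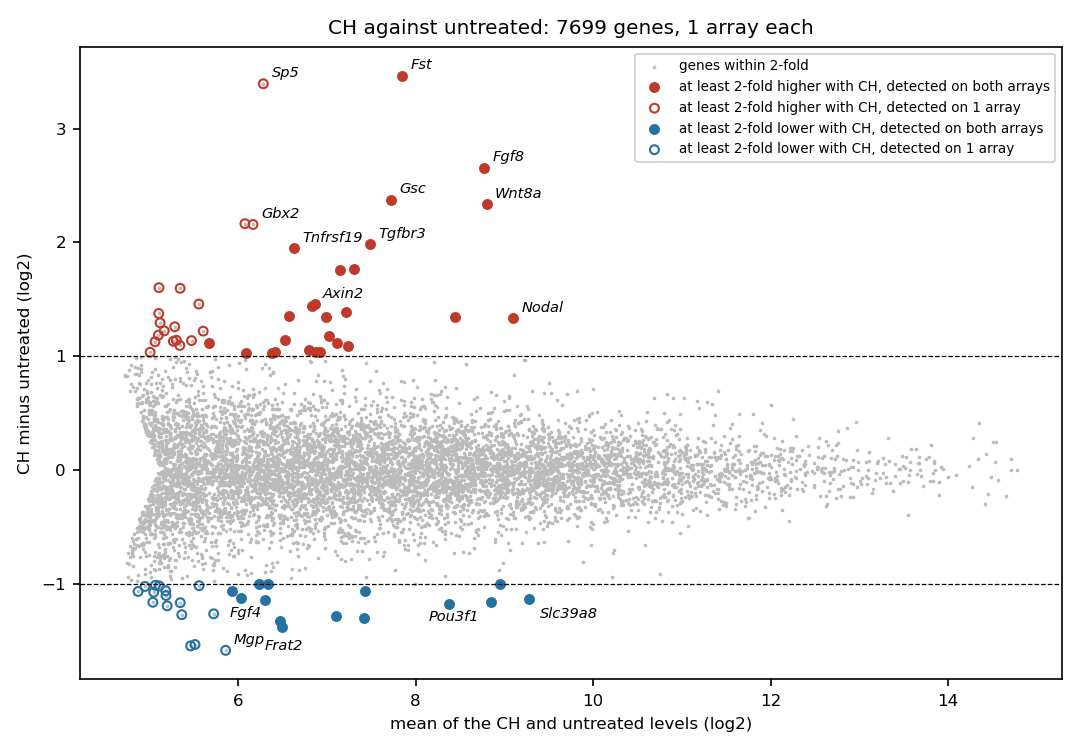
Difference between the CH and untreated arrays (log2, vertical axis) against the mean of both levels (log2, horizontal axis) for 7699 genes; dashed lines mark 2-fold, filled points genes detected on both arrays and open points genes detected on 1 of them. The highest points, Fst and Sp5, lie above 3, whereas the lowest, Mgp, lies at -1.59 as measured, and most genes past 2-fold have low to middle levels.

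Low levels were common in both sets. Among the 2575 genes with a mean level under 6.5 there were 22 higher and 23 lower genes, and among the 2560 genes at 8.5 or above there were 3 of each. The standard deviation of the differences was 0.43 in the dim class and 0.24 in the bright class. The 3 bright higher genes were Fgf8, Wnt8a and Nodal, and the 3 bright lower genes were Pou3f1, which encodes a POU factor of the primed epiblast, Slc39a8, which encodes a zinc and manganese importer, and Ppp1r1a, which encodes an inhibitor of protein phosphatase 1.

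Of the Wnt and beta-catenin target list, 25 genes were on the array and 11 were detected, of which 9 stood above 0 and 2 below, against 48.5% and 51.2% of all genes compared. Sp5, a zinc finger factor induced by Wnt, had levels of 7.98 with CH, 8.06 with PCL, 4.34 with PD, 4.31 with LIF and 4.59 in untreated cells. It was near background on every array without CHIR99021 and was at least 7.35-fold higher with CH than in untreated cells. Tnfrsf19, a receptor of the tumour necrosis factor receptor family, had 7.60 with CH, 7.70 with PCL, 4.75 with PD, 5.47 with LIF and 5.65 in untreated cells, a difference of 1.95 ± 0.14 between CH and untreated cells. Axin2, the feedback inhibitor that belongs to the destruction complex, had 7.59 with CH, 7.61 with PCL, 6.43 with PD, 5.97 with LIF and 6.14 in untreated cells, a difference of 1.46 ± 0.14. For each of these 3 genes the CH and PCL arrays, which share CHIR99021, lay above all of the others. The pathway inhibitors Nkd2 and Apcdd1 stood at 0.62 ± 0.16 and 0.61 ± 0.21, and the cyclin Ccnd1 at 0.14 ± 0.07 with its other probes at 0.08 and 0.36. The median of the list was 0.25, against -0.01 for all genes compared, and was 0.03 over all 25 members with no detection filter. Members not well above background on either array included Lef1, Nkd1, Rnf43, Lgr5, Notum, Dkk1 and Myc.

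The promoter windows of Sp5 and Tnfrsf19 are shown because they were the only windows among those of the higher genes to hold the TCF/LEF motif ATCAAAG, here in capitals, or its reverse complement CTTTGAT. The windows are from RefSeq (GRCm38.p6) and run from 250 bases before to 50 bases after the annotated start, 5′ to 3′ on the strand of the gene.
Sp5 (chr2:70474673-70474972, + strand): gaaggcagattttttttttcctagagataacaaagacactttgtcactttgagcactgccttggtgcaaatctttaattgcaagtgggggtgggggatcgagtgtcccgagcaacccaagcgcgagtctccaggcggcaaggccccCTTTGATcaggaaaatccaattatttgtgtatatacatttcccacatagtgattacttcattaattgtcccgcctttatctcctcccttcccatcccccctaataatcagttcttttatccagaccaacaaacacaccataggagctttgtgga
Tnfrsf19 (chr14:61037938-61038237, - strand): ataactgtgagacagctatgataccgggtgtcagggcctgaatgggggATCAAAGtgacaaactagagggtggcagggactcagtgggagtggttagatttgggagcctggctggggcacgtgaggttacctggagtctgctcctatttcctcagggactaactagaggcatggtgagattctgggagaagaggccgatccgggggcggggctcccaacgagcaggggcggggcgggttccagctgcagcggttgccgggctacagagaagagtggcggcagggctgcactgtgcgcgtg
The match begins 104 bases before the start of Sp5 and 202 bases before that of Tnfrsf19. A window was given for 31 of the 44 higher genes, and 2 of these (6.45%) held the motif on either strand. It occurred for 0 of 24 lower genes with a window and for 191 of 6322 genes compared (3.02%), and in 3.73% of all 32851 windows. No other motif was searched. These matches describe the letters of short windows only.

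Among Wnt ligands, receptors and antagonists, 20 of 48 genes on the array were detected, 14 above 0 and 6 below, with a median of 0.26, or 0.02 over all 48 with no detection filter. The ligand gene Wnt8a had 9.97 with CH, 9.12 with PCL, 6.85 with PD, 5.58 with LIF and 7.63 in untreated cells, a difference of 2.34 ± 0.13, and its other probes gave 1.88 ± 0.24 and 2.33 ± 0.13. Fzd10, which encodes a Frizzled receptor, had 8.02 with CH, 8.41 with PCL, 6.38 with PD, 5.86 with LIF and 6.26 in untreated cells, a difference of 1.76 ± 0.16. Both genes were highest on the arrays with CHIR99021, and a dimmer probe of Fzd10, detected with CH only, was at least 3.39-fold higher. The ligand gene Wnt3 was at least 1.61-fold higher, with levels of 5.79 with CH and 4.42 in untreated cells. Ror2, a receptor tyrosine kinase for Wnt5a, stood at 1.04 ± 0.14 with levels of 7.44 against 6.40. The R-spondin gene Rspo3, whose product amplifies Wnt signals, was at least 1.69-fold higher. At the other end stood the secreted antagonists Dkk3 at -0.69 ± 0.15 and Sfrp2 at -0.44 ± 0.14, and the Dickkopf receptor Kremen1 at -0.56 ± 0.24. Over the same 20 detected genes the median was -0.11 in PCL minus PD and 0.17 in PCL minus LIF. In these comparisons Rspo3 stood at -0.15 and 0.71 and Sfrp2 at 0.27 and 0.15. Dkk3 stood at -0.39 and -0.52 there, and Kremen1 at -0.12 and -0.07. Wnt3a was among the 28 members not well above background on either array.

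Genes for the intracellular pathway differed less. Of 19 detected genes for GSK3, the destruction complex and TCF factors, 8 stood above 0 and 11 below, with a median of -0.10. Transcripts of the kinases themselves differed little: Gsk3b had 6.27 with CH and 6.58 in untreated cells, a difference of -0.31 ± 0.17, and Gsk3a, detected in untreated cells only, was close to the detection limit at 5.05 with CH and 5.29 in untreated cells. Transcripts of beta-catenin (Ctnnb1) stood at 0.08 ± 0.09 and of Apc at 0.05 ± 0.22. Frat2, whose product binds GSK3 and inhibits it, was the only member past 2-fold, with 5.80 with CH, 5.31 with PCL, 7.08 with PD, 7.23 with LIF and 7.18 in untreated cells. This was lower on both arrays with CHIR99021 than on any other, with a difference of -1.38 ± 0.19 for CH. Tcf7l1, the TCF factor that represses pluripotency genes in mouse embryonic stem cells, stood at -0.66 ± 0.06 with levels of 10.26 against 10.91, but it was at 10.93 with PCL, against 11.13 with PD and 10.88 with LIF. Tcf7l2 stood at -0.42 ± 0.21. The corepressor genes Tle1 and Tle5 stood at 0.38 ± 0.11 and -0.36 ± 0.10.

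Genes of the primitive streak and organizer had the highest list median. This list, like the others, was chosen with earlier results of these data known, so its rank and counts are a description only. Of 35 on the array 21 were detected, 16 above 0 and 5 below, and 8 were past 2-fold on the higher side in measured values (0.572% of all genes compared) and 0 on the lower (0.39%). At their bound, 6 were past 2-fold on the higher side (0.416%). Their median was 0.83, or 0.57 over members detected on both arrays and 0.57 with the members detected on 1 array at their bound. Since 7 members were detected with CH only, the detection filter itself favours values above 0, and the median with no filter was 0.12. Over the same 21 detected genes the median was 0.49 in PCL minus PD and 0 in PCL minus LIF. Fst, which encodes the secreted activin antagonist follistatin, had 9.58 with CH, 8.21 with PCL, 5.64 with PD, 5.69 with LIF and 6.12 in untreated cells. Fgf8, a growth factor of the streak, had 10.10 with CH, 10.10 with PCL, 7.24 with PD, 6.04 with LIF and 7.44 in untreated cells, and the homeobox gene Gsc, a marker of the organizer, had 8.92 with CH, 7.53 with PCL, 6.02 with PD, 5.65 with LIF and 6.54 in untreated cells. In each case CH and PCL were the highest arrays, and for Fst and Gsc the CH level exceeded the PCL level by more than 1. The differences between CH and untreated cells were 3.46 ± 0.12, 2.66 ± 0.12 and 2.38 ± 0.12. The T-box gene Eomes was at least 2.27-fold higher, with levels of 6.28 with CH, 5.73 with PCL, 4.54 with PD, 4.99 with LIF and 4.83 in untreated cells. Mixl1, a homeobox gene of the streak, was at least 1.75-fold higher, with 5.91 with CH, 4.35 with PCL, 4.28 with PD, 4.35 with LIF and 4.31 in untreated cells. Mixl1 thus stood above background on the CH array and on no other. Its second probe, also detected with CH only, was at least 1.05-fold higher, a log2 bound of 0.07 with a bead error of 0.16. Foxa2 and Fgf17, which mark the anterior streak and its derivatives, were at least 1.18-fold and at least 1.63-fold higher. Of the genes for secreted inhibitors, Chrd (chordin, a BMP antagonist) stood at 0.83 ± 0.10 and Lefty2 (a Nodal antagonist) at 0.57 ± 0.14. Mesp1, Tbx6, Evx1 and Cdx2, which mark nascent and posterior mesoderm, were not well above background on either array.

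In the list of Nodal, activin and BMP signalling, 19 of 30 detected genes stood above 0 and 11 below, with a median of 0.10, or 0.03 with no detection filter. Nodal itself, a bright gene, had 9.76 with CH, 9.41 with PCL, 8.61 with PD, 8.48 with LIF and 8.43 in untreated cells, a difference of 1.33 ± 0.16. Tgfbr3, which encodes the co-receptor betaglycan, had 8.47 with CH, 7.66 with PCL, 6.52 with PD, 6.29 with LIF and 6.49 in untreated cells, a difference of 1.98 ± 0.18. Both were highest with CH and next highest with PCL. A second probe of Tgfbr3, detected with CH only, was at least 1.85-fold higher. The activin subunit gene Inhbb stood at 0.94 ± 0.17, and the type II receptor gene Tgfbr2 at 0.57 ± 0.09. Inhbb had 6.48 with CH, 6.25 with PCL, 6.64 with PD, 6.35 with LIF and 5.54 in untreated cells. Lower values came from the Nodal co-receptor Tdgf1 at -0.50 ± 0.18, Lefty1 at -0.31 ± 0.07 and Gdf3 at -0.34 ± 0.09. The BMP-induced genes Id1 and Id3 stood at 0.10 ± 0.21 and 0.10 ± 0.35, with bead errors larger than the differences.

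FGF ligand genes stood on both sides of 0. Fgf8 and Fgf17 are described above, and Fgf5, a marker of the post-implantation epiblast, had 9.70 with CH and 8.73 in untreated cells, a difference of 0.97 ± 0.10. On the PCL array Fgf5 was at 7.58, below all of the others. Fgf4, expressed in the naive as well as the primed epiblast, had 5.80 with CH, 5.30 with PCL, 7.07 with PD, 7.82 with LIF and 7.13 in untreated cells, a difference of -1.33 ± 0.21. Like Frat2, it was lowest on the arrays with CHIR99021. In the list of FGF ligands, receptors and ERK targets, 16 of 22 detected genes stood above 0 and 6 below, with a median of 0.17, or 0.05 with no detection filter. The feedback inhibitor Il17rd stood at 0.72 ± 0.17 and the ETS factors Etv4 and Etv5 at 0.62 ± 0.11 and 0.39 ± 0.21, while the phosphatase genes Dusp14 and Dusp4 stood at -0.79 ± 0.27 and -0.58 ± 0.10. The second probe of Dusp4 was at -0.13 ± 0.26. Egr1, the immediate early factor, differed by 0.12 ± 0.11.

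**Figure D2:**
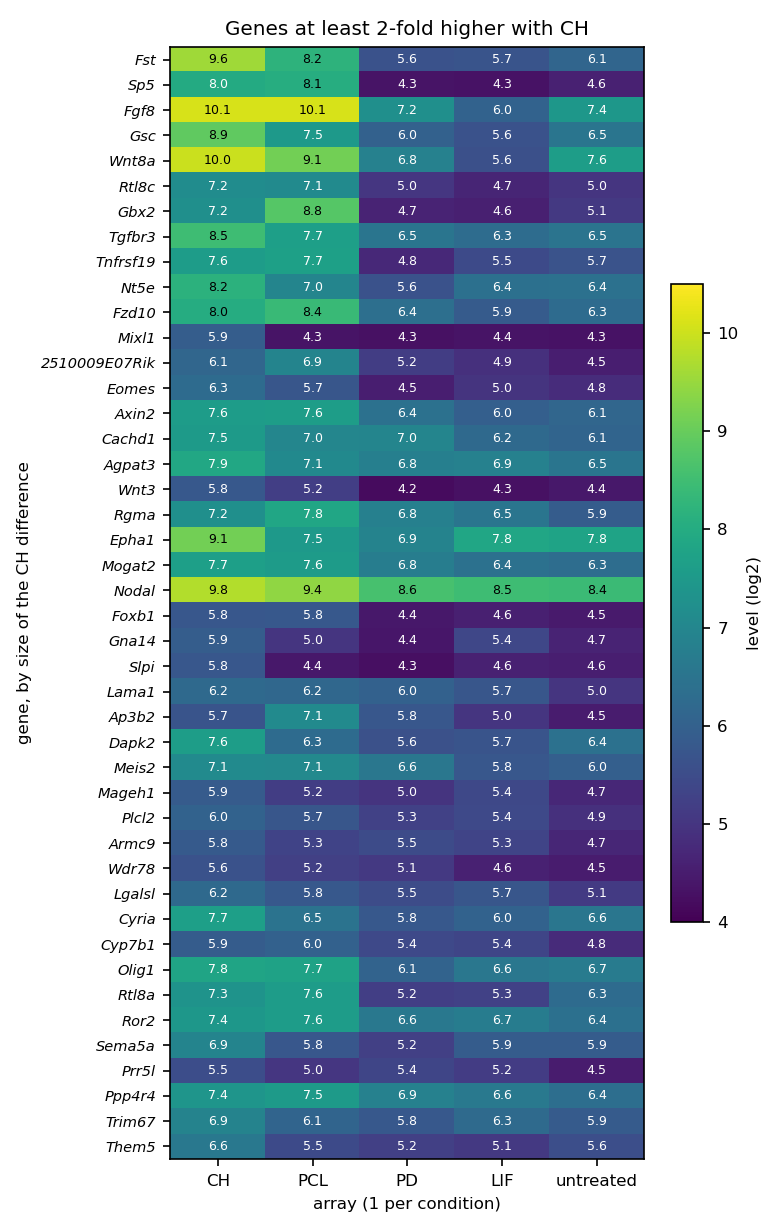
Levels (log2) of the 44 genes at least 2-fold higher with CH, in rows by the size of the difference, on the arrays of CH, PCL, PD, LIF and untreated cells (columns, 1 array each). Fst, Sp5, Fgf8 and Wnt8a are high on the CH and PCL columns, whereas Mixl1 and Slpi are detected on the CH column alone, at the low levels of 5.91 and 5.78.

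The other higher genes fell into several roles. Among transcription factors, the homeobox gene Gbx2, which marks the posterior neural plate and is also active in naive cells, had 7.25 with CH, 8.79 with PCL, 4.65 with PD, 4.58 with LIF and 5.09 in untreated cells. It was at least 4.42-fold higher with CH than in untreated cells and higher still with PCL. The basic helix-loop-helix gene Olig1 had 7.78 with CH and 6.69 in untreated cells, a difference of 1.09 ± 0.13. The TALE homeobox gene Meis2 stood at 1.14 ± 0.15, and the forkhead gene Foxb1 was at least 1.58-fold higher and was detected on the CH and PCL arrays at 5.77 and 5.80, against 4.42 with PD, 4.56 with LIF and 4.47 in untreated cells. Rtl8c, a gene derived from a retrotransposon Gag sequence, had 7.16 with CH, 7.11 with PCL, 5.02 with PD, 4.68 with LIF and 4.99 in untreated cells and was at least 4.16-fold higher. Rtl8a, of the same origin, had 7.33 with CH, 7.58 with PCL, 5.19 with PD, 5.27 with LIF and 6.27 in untreated cells and stood at 1.06 ± 0.22. The 2 genes belong to 1 family of similar copies, so their probes could share signal, which was not tested.

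Genes for cell surface and guidance proteins made up a further part. The ephrin receptor gene Epha1 had 9.11 with CH, 7.51 with PCL, 6.91 with PD, 7.84 with LIF and 7.77 in untreated cells, a difference of 1.34 ± 0.12, and its other 3 probes gave 0.84 ± 0.20, 0.84 ± 0.20 and 1.05 ± 0.17. On the PCL array it was below the untreated level. Rgma, which encodes a guidance molecule that also acts as a BMP co-receptor, had 7.24 with CH and 5.89 in untreated cells, a difference of 1.35 ± 0.14. Its levels were 7.84 with PCL, 6.82 with PD and 6.53 with LIF. The semaphorin gene Sema5a stood at 1.04 ± 0.16, with its second probe at 0.64 ± 0.20. Nt5e, whose product makes extracellular adenosine, had 8.18 with CH and 6.42 in untreated cells, a difference of 1.76 ± 0.17, and its dimmer probe was at least 1.37-fold higher. Cachd1, related to auxiliary subunits of calcium channels, stood at 1.44 ± 0.13. Its levels were 7.55 with CH, 6.98 with PCL, 6.95 with PD, 6.21 with LIF and 6.10 in untreated cells. Lama1, a laminin subunit of basement membranes, was at least 2.16-fold higher. It had 6.21 with CH, 6.17 with PCL, 6.03 with PD, 5.73 with LIF and 5.00 in untreated cells. The secreted protease inhibitor Slpi was at least 1.60-fold higher.

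Enzymes and signalling proteins completed the set. Agpat3, an acyltransferase of phospholipid synthesis, had 7.90 with CH and 6.52 in untreated cells, a difference of 1.38 ± 0.17. Its levels were 7.07 with PCL, 6.79 with PD and 6.86 with LIF. Mogat2, an acyltransferase of triacylglycerol synthesis, stood at 1.34 ± 0.17, with its dimmer probe at 0.46 ± 0.22. The thioesterase gene Them5 stood at 1.03 ± 0.21, and the oxysterol hydroxylase gene Cyp7b1 was at least 1.73-fold higher. The kinase gene Dapk2 stood at 1.18 ± 0.11, the Rac-binding regulator Cyria at 1.11 ± 0.12, the phosphatase subunit gene Ppp4r4 at 1.03 ± 0.13, with its second probe at 0.93 ± 0.14, and Trim67 at 1.03 ± 0.13. The galectin-related gene Lgalsl stood at 1.12 ± 0.20, and the G protein gene Gna14 was at least 1.75-fold higher. Plcl2, Mageh1, Armc9, Ap3b2, Wdr78 and Prr5l were all below detection in untreated cells, with bounds that ran from at least 1.92-fold higher for Plcl2 down to at least 1.34-fold for Prr5l. The remaining higher gene carried a model name.

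Genes at least 2-fold lower with CH had no dominant pathway among the lists. Of genes linked to signalling besides Frat2 and Fgf4, Ramp3, which encodes a partner of the calcitonin receptor-like receptor, had 6.77 with CH, 6.60 with PCL, 6.98 with PD, 7.66 with LIF and 8.07 in untreated cells, a difference of -1.30 ± 0.18. Its other probes gave -0.65 ± 0.15 and -0.94 ± 0.17. The retinoic acid receptor gene Rarb was at least 1.93-fold lower, but its second detected probe stood at 0.13 ± 0.24. Stat4 stood at -1.06 ± 0.19. Its dimmer probe was at least 1.08-fold lower, a log2 bound of -0.11 with a bead error of 0.25. The adenylyl cyclase gene Adcy4 was at least 1.37-fold lower. Ppp1r1a had 8.45 with CH and 9.45 in untreated cells, and only just reached 2-fold.

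Among lower genes for nuclear proteins, Pou3f1 had 8.27 with CH, 7.82 with PCL, 8.83 with PD, 9.15 with LIF and 9.43 in untreated cells, a difference of -1.16 ± 0.09. It was lowest on the arrays with CHIR99021. The linker histone gene H1f10 had 7.78 with CH and 8.96 in untreated cells, a difference of -1.18 ± 0.13, and its second probe gave -0.99 ± 0.15. The zinc finger repressor Bcl11a was at least 2.35-fold lower, the zinc finger genes Zkscan14 and Zfp74 stood at -1.14 ± 0.13 and were at least 1.53-fold lower, and the RNA-binding protein gene Mex3d was at least 1.75-fold lower. Pdcd4, an inhibitor of translation, was at least 1.41-fold lower, Tal2, a basic helix-loop-helix gene, at least 1.38-fold lower, and the centromere gene Cenpx at least 1.26-fold lower.

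Transporters, metal-handling and structural genes formed the rest. Slc39a8 had 8.71 with CH, 9.03 with PCL, 10.23 with PD, 10.46 with LIF and 9.85 in untreated cells, a difference of -1.13 ± 0.09, and was also lowest on the arrays with CHIR99021. Mt2, a metallothionein that binds zinc, stood at -1.13 ± 0.28, with a level of 4.63 with LIF that was lower than the CH level. Slc35d3, of the nucleotide sugar transporter family, was at least 2.17-fold lower, and the GABA transporter gene Slc6a13 at least 1.60-fold lower. Uchl1, a deubiquitinase abundant in neurons and germ cells, had 6.46 with CH and 7.75 in untreated cells, a difference of -1.28 ± 0.19. Its levels were 6.92 with PCL, 7.16 with PD and 7.13 with LIF. The tight junction gene Cldn3 had 6.90 with CH and 7.97 in untreated cells, a difference of -1.07 ± 0.15. Mgp, which encodes matrix Gla protein, was at least 2.89-fold lower, the caveola gene Cavin2 at least 1.41-fold lower and the cathepsin gene Ctsf at least 1.84-fold lower. Of the rest, Ifi27l2a, an interferon-induced gene, and Grin2c, a glutamate receptor subunit gene, were at least 1.51-fold and at least 1.22-fold lower. Hrc stood at -1.01 ± 0.16, Rnf26 just reached 2-fold with levels of 5.83 with CH and 6.83 in untreated cells, and 1 lower gene carried a model name.

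**Figure D3:**
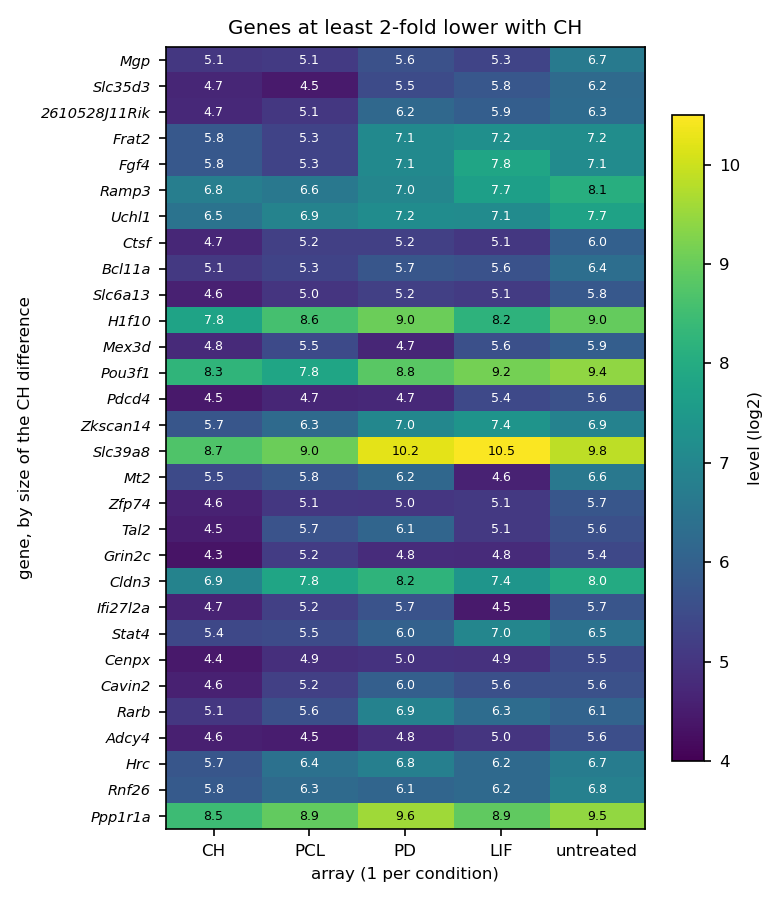
Levels (log2) of the 30 genes at least 2-fold lower with CH, in rows by the size of the difference, on the arrays of CH, PCL, PD, LIF and untreated cells (columns, 1 array each). Frat2, Fgf4, Pou3f1 and Slc39a8 are lowest on the CH and PCL columns, whereas Mgp and Ctsf are highest on the untreated column and lie below 5.7 on the other 4.

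The 5 arrays showed how far the 2 sets rest on the untreated array. Of the 30 lower genes, 18 had their highest level of all 5 arrays in untreated cells, which held for 19.9% of the genes compared. Of the 44 higher genes, 17 had their lowest level in untreated cells, against 20% of the genes compared. Since the untreated value entered the choice of both sets, these counts are a description. CH was the highest array for 31 of the higher genes and PCL for the other 13. Both arrays with CHIR99021 lay above the 3 arrays without it for 31 of the higher genes (10% of the genes compared) and below them for 18 of the lower genes (12.9%). The CH and untreated values that chose the genes are among these 5 arrays, so nothing is read from these shares. With the mean of the 3 arrays without CHIR99021 in place of untreated cells, 31 of the 44 higher and 10 of the 30 lower genes remained past 2-fold. The CH value was the same there and the untreated value was part of the mean.

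PCL against PD and PCL against LIF share no array with CH against untreated, and both also differ by CHIR99021, although the first differs by LIF as well and the second by PD. For the 44 higher genes the median of PCL minus PD was 0.80, with 42 above 0, against 48.7% of the genes compared, and 20 at least 2-fold higher, against 0.649%. In PCL minus LIF their median was 0.88, with 35 above 0 (45.7% of the genes compared) and 19 at least 2-fold higher (3%). Fst stood at 2.58 in PCL minus PD and 2.52 in PCL minus LIF, Fgf8 at 2.86 and 4.06, Wnt8a at 2.28 and 3.55, and Axin2 at 1.18 and 1.65. Cachd1, at 0.03 in PCL minus PD, Mixl1, at 0.07, and Slpi, at 0.14, were among those near 0 there. The 2 genes below 0 in PCL minus PD were Armc9 at -0.20 and Prr5l at -0.33. For the 30 lower genes the median of PCL minus PD was -0.44, with 25 below 0 (51.1% of the genes compared) and 7 at least 2-fold lower (0.572%). In PCL minus LIF the median was -0.22, with 20 below 0 (54.2%) and 8 at least 2-fold lower (0.857%). Fgf4 stood at -1.77 and -2.52 in the 2 comparisons and Frat2 at -1.77 and -1.93. Across all 7699 genes, Pearson's r between CH minus untreated and PCL minus PD was 0.22, and Spearman's rho 0.10. With PCL minus LIF, r was 0.14 and rho 0.05. Genes are not independent replicates, and the arrays were normalized together, so these correlations are a description.

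**Figure D4:**
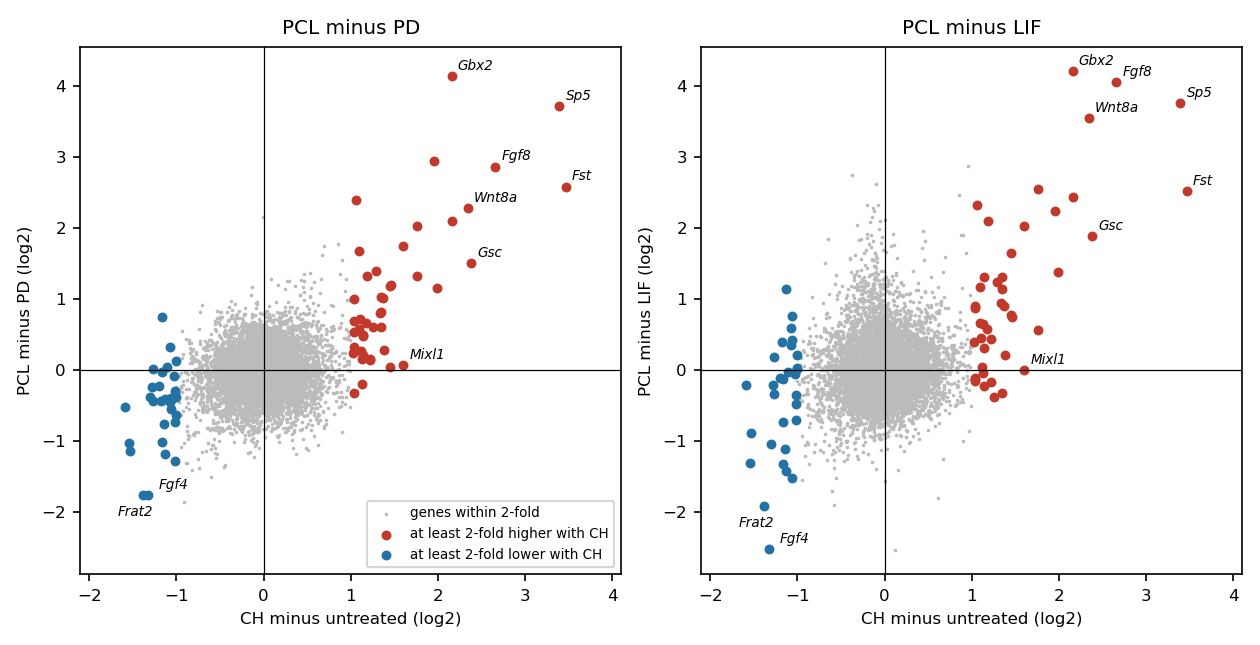
CH minus untreated (log2, horizontal axes) against PCL minus PD (left) and PCL minus LIF (right, log2, vertical axes) for 7699 genes, with the 44 higher genes in red and the 30 lower genes in blue. Most red points lie above 0 in both panels, with 42 of 44 on the left, while the blue points spread across 0, with 25 of 30 below it on the left.

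In measured values, 13 genes (0.169%) were at least 2-fold higher on both arrays with CHIR99021 than on each of the 3 arrays without it. Of these, Sp5, Gbx2, Rtl8c and Foxb1 were undetected on all 3 of the others, so their gaps are known only as bounds, and Foxb1 did not reach 2-fold at its bound. The other 9 were Fgf8, Fst, Tnfrsf19, Fzd10, Wnt8a, Axin2, Tgfbr3, Rtl8a and Olig1. Among these 9, the gap between the lower of the arrays with CHIR99021 and the highest of the others ran from 1.04 for Olig1 to 2.66 for Fgf8. In the opposite direction there were 2 genes (0.026%), Frat2 with a gap of -1.28 and Fgf4 with -1.27. This criterion contains CH against untreated, so all of these genes were already among the higher or lower genes. The shares are a description only.

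Most core pluripotency genes were detected, 18 of 21 on the array. Of the markers of epiblast stem cells used to check cell identity, all 9 on the array were detected on both arrays, with Pou5f1 at 12.43 with CH and 12.35 in untreated cells, Otx2 at 10.05 against 10.39 and Dnmt3b at 13.45 against 13.54. The second probe of Dnmt3b stood at -0.69 ± 0.12. Nanog had 10.55 with CH and 10.04 in untreated cells, a difference of 0.52 ± 0.08. Sall4, a zinc finger gene of the same network, stood at 0.49 ± 0.09, while Utf1 stood at -0.95 ± 0.12, Sox2 at -0.59 ± 0.14 and Otx2 at -0.34 ± 0.09. A dimmer probe of Sox2, detected with CH only, measured 0.12 ± 0.25, and one of Pou5f1 gave -0.21 ± 0.08. In all, 6 of the 18 detected core genes stood above 0 and 12 below, with a median of -0.08. Of the naive state genes 9 of 14 detected members stood above 0 and 5 below, with a median of 0.13, or 0.01 with no detection filter. Klf2 had 7.61 with CH, 8.90 with PCL, 7.56 with PD, 7.01 with LIF and 6.73 in untreated cells, a difference of 0.88 ± 0.15 for CH, and was highest with PCL. Klf5 and Esrrb, zinc finger and nuclear receptor genes of the naive network, stood at 0.42 ± 0.10 and 0.32 ± 0.13, and Zfp42 at -0.25 ± 0.23. Klf4 and Nr0b1 were not well above background on either array. Of 16 detected primed epiblast genes, 6 stood above 0 and 10 below. Fgf8, Eomes, Nodal and Fgf5 were among those above 0, and Pou3f1 and Sall2 among those below, the last at -0.55 ± 0.15.

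The 9 detected neural ectoderm genes ranged widely, with Gbx2 highest and Pou3f1 lowest, and 26 of the 35 on the array were not well above background. The Iroquois genes Irx3 and Irx2 stood at 0.95 ± 0.18 and 0.59 ± 0.16, and the SoxB factor Sox21 at 0.64 ± 0.14, while Crabp2, a retinoic acid binding protein gene, stood at -0.68 ± 0.17. The median of the list was 0.46, -0.01 over members detected on both arrays and 0.01 with no detection filter. Among germ cell genes, Tfap2c, a factor of trophoblast and germ cell precursors, stood at 0.69 ± 0.12 with its other probes at 0.13 and 0.28, and Nanos1 at 0.59 ± 0.19. The 4 trophoblast markers Cdx2, Elf5, Gata3 and Hand1 were detected on neither array, and of 5 markers of visceral endoderm only Apoa1 was, at -0.13 ± 0.16. A longer list of trophoblast and visceral endoderm genes had 15 of 28 detected, 8 above 0 and 7 below, with a median of 0.05. Of these 15 genes, 2 were past 2-fold on the higher side (0.572% of all genes compared) and 0 on the lower (0.39%).

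Of 22 detected epithelial and mesenchymal genes 15 stood below 0 and 7 above (51.2% and 48.5% of all genes compared), with a median of -0.13. Besides Cldn3, the junction scaffold Tjp3 stood at -0.88 ± 0.17, the claudin genes Cldn7 and Cldn4 at -0.64 ± 0.21 and -0.42 ± 0.07, and the cadherin genes Cdh3 and Cdh1 at -0.60 ± 0.18 and -0.21 ± 0.10. The repressors of epithelial genes Zeb2 and Zeb1 stood at 0.87 ± 0.18 and 0.34 ± 0.18. Of these genes only Cldn3 was past 2-fold, and it stood at 7.82 with PCL, 8.22 with PD and 7.40 with LIF. Zeb2 had 6.14 with CH, 5.92 with PCL, 5.92 with PD, 5.61 with LIF and 5.27 in untreated cells. For Cldn7 these levels were 5.62, 5.99, 5.64, 5.60 and 6.26, and for Tjp3 6.25, 7.31, 7.36, 7.83 and 7.13. Cdh3 was lowest on the arrays with CHIR99021, with 5.84, 5.78, 7.29, 6.97 and 6.44 in the same order.

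Of 11 feeder markers on the array 6 were detected with CH and 7 in untreated cells, and their summed background-corrected intensity was 2223 with CH and 2241 in untreated cells. Vim, which many cell types express, made up most of this sum, and without it the sum was 730.1 with CH and 963.9 in untreated cells. Of the 11 markers, detected or not, 5 stood above 0 and 6 below. Lower values came from Dcn at -0.41 ± 0.09, Lum at -0.40 ± 0.19, Thy1 and Mgp. Col1a1 stood at 0.32 ± 0.19, Vim at 0.22 ± 0.10 and Lox at -0.04 ± 0.13. Col1a2, Col3a1, Postn and Pdgfrb were detected on neither array. In the longer feeder list, 14 of 34 detected genes stood above 0 and 20 below, with a median of -0.09. Mgp was the only one past 2-fold, and the part of the feeder layer in the set of lower genes was not tested. The chemokine genes Ccl11 and Ccl7 stood at -0.74 ± 0.13 and -0.56 ± 0.16, the surface marker Thy1 at -0.63 ± 0.12, and the collagen gene Col5a1 at 0.53 ± 0.08 and the fibulin gene Fbln1 at 0.52 ± 0.10. In such mixed cultures, fewer cells of a type and less RNA per cell cannot be told apart.

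**Figure D5:**
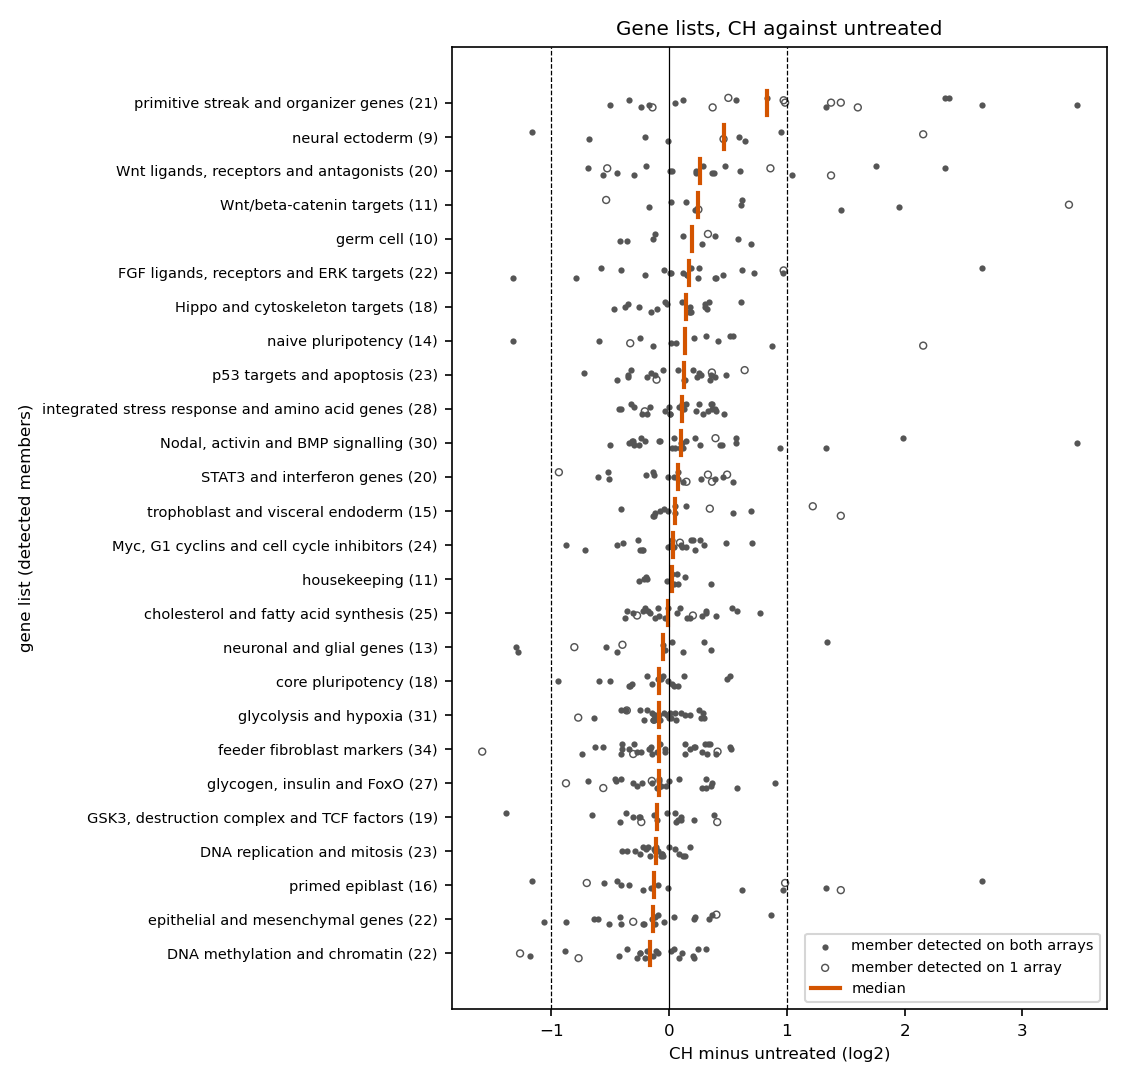
Differences between CH and untreated arrays (log2, horizontal axis) of the detected members of 26 gene lists (rows, with the number of members), as filled points for members detected on both arrays and open points for members detected on 1; orange bars are medians. The primitive streak and organizer list has the highest median at 0.83, and the medians of most other lists lie within 0.2 of 0. The lists were chosen with earlier results of these data known.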

How the data were processed

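RNA of 5 cultures, 1 per condition, was amplified from 400 ng by in vitro transcription and hybridised to bead arrays, per the labels' protocols. The deposited scanner tables hold, per the file headers, the mean bead intensity, its bead standard error and a detection p-value in steps of 1 in 798 for 25697 probes. The submitters' processing notes name BeadStudio, without a version. The lowest deposited intensity was 70.7 on the CH array and 67.6 on the untreated array, and the values were taken as not background-subtracted. The authors also deposited processed intensity values, whose scaling and background correction are not given in the sources used here, and these served as an alternative.

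All 5 arrays were normalized by the neqc function (limma 3.58.1, R 4.3.3), which took the mean and spread of the negative controls from detection p-values, with an offset of 16, quantile normalization and log2. The procedure was tested on simulated data in which changes were placed only in probes well above background. The simulation therefore does not cover changes of dim genes. Bead errors were propagated to the log2 scale through the background correction. Probes were named from a platform annotation, with 1719 unnamed, and the probe with the highest mean level over 5 arrays stood for its gene. Named were all genes past 2-fold apart from 2 model names, up to 5 detected members with the largest differences of each of 26 lists, and a fixed panel; other list members are named as examples chosen after their values were seen. The members and lists were chosen with earlier results of these data known. Bead precision covers measurement within an array only. Python 3.11.15, pandas 2.3.3, numpy 2.4.6 and matplotlib 3.10.9 were used.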

Additional observations from a re-analysis of the deposited data

Results flagged for a closer look

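Probes without a gene symbol were outside the comparison. Of 1719 such probes 624 were detected on the CH or untreated array, and 7 of these were at least 2-fold higher with CH and 0 at least 2-fold lower. Among named probes the shares were 0.505% on the higher side and 0.333% on the lower. With so few probes, nothing is read from the split. ILMN_3082031 and ILMN_2601877, detected with CH only, were at least 1.29-fold and at least 1.95-fold higher, short of 2-fold at their bound. The largest difference, 2.48 ± 0.14 as measured, came from probe ILMN_1244340, whose levels were 6.95 with CH, 5.39 with PCL, 4.38 with PD, 4.27 with LIF and 4.47 in untreated cells. It was not well above background in untreated cells and was at least 3.59-fold higher with CH. It is given here as signal above the untreated level in data outside the comparison.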

How the results depend on the processing

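The counts of genes past 2-fold depended on how dim signals were treated, while 13 of the 44 higher genes and 1 of the 30 lower genes, Slc39a8, were past 2-fold in every setting that gave them a value. Against 44 higher and 30 lower genes, background correction left out gave 13 and 2, an offset of 50 gave 17 and 5, an offset of 1 gave 180 and 202, genes detected on both arrays 26 and 14 and the authors' processed values 146 and 164. At the bound there were 32 and 18. The marker sum without Vim and the gaps at the bound were chosen after seeing the data. Median scaling, a detection p under 0.05, no detection filter, the mean of a gene's detected probes, normalization of the CH and untreated arrays alone, the mean of the 3 arrays without CHIR99021 and, chosen after seeing the data, a normalization without the LIF array kept both counts within 1.5 times. In median scaling the share of higher genes among those past 2-fold was 75.9%, against 59.5%. The numbers of higher and lower genes with the same sign in PCL minus PD and in PCL minus LIF stayed within 1.5 times in all settings run for them. No gene past 2-fold changed sign in the settings run. The medians of the streak list lay between 0.12 and 0.95, of the Wnt target list between 0.03 and 0.53 and of the neural ectoderm list between -0.01 and 0.80, lowest with no detection filter for the first 2 lists and over members detected on both arrays for the neural list. No paired analysis was possible because each condition had 1 array. The number of arrays and the signal over background limit what can be said of dim genes.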

Other observations

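In the lists of glycogen, insulin and FoxO regulation, cell cycle, DNA replication, lipid synthesis, glycolysis and apoptosis no member was past 2-fold, a count to be read against 0.572% of all genes on the higher side and 0.39% on the lower. Of 27 detected genes of glycogen, insulin and FoxO regulation 8 stood above 0 and 19 below. Txnip, an inhibitor of glucose uptake and thioredoxin, stood at -0.68 ± 0.08, the insulin-like growth factor binding protein genes Igfbp5 and Igfbp2 at -0.46 ± 0.11 and -0.45 ± 0.08, and the FoxO target Ccng2 was at least 1.20-fold lower, while Cited2, a transcriptional coregulator, stood at 0.90 ± 0.16 and the insulin receptor substrate Irs2 at 0.57 ± 0.11. Glycogen synthase (Gys1) stood at 0.28 ± 0.20. Among cell cycle genes, the cyclin gene Ccnd2 stood at 0.71 ± 0.10 and the inhibitor Cdkn1a at 0.49 ± 0.07, while Mxd4, a Myc antagonist, and Cdkn2d stood at -0.88 ± 0.24 and -0.72 ± 0.22. Of 23 detected DNA replication and mitosis genes 5 stood above 0, 17 below and 1 at 0, with a median of -0.11.

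In lipid synthesis, the desaturase gene Scd2 and the carboxylase gene Acaca stood at 0.77 ± 0.24 and 0.57 ± 0.07, and the sterol regulator Insig1 at -0.38 ± 0.12, with 12 of 25 detected genes above 0. The other probes of Insig1 gave -0.28 ± 0.14 and 0.10 ± 0.12. The hypoxia-induced carbonic anhydrase gene Car9 was at least 1.41-fold lower and the aldolase gene Aldoc stood at -0.64 ± 0.08, while 19 of 31 detected glycolysis and hypoxia genes stood below 0. The proapoptotic gene Bbc3 stood at -0.72 ± 0.11. Another linker histone gene, H1f2, stood at -0.88 ± 0.10. The 11 detected housekeeping genes had a median of 0.02, with Actb at 0.07 ± 0.06, its other probes detected on both arrays between 0.09 ± 0.25 and 0.44 ± 0.06 and one detected in untreated cells only at -0.37 ± 0.11 as measured, and Gapdh at -0.22 ± 0.04.

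Genes of long genomic span stood slightly higher than genes of short span. When genes were divided into 10 groups by their RefSeq span, introns included, the median difference was 0.05 for the longest genes and -0.13 for the shortest. The 44 higher genes had a median span of 38498 bp, the 30 lower genes 8865 bp and the 7695 compared genes with a span 20683 bp. The higher genes lay at both ends: the shortest group of 770 genes held 11 higher and 11 lower genes. The longest group of 770 held 13 higher and 2 lower genes. The part of span in the differences was not tested.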
